A study of Mus musculus with 16 samples.

Results

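The receptors *Vmn2r8* to *Vmn2r17* form a cluster on mouse chromosome 5, and their RNA was measured in the vomeronasal organ (VNO) of mice bred for high voluntary wheel running (HR lines) and of non-selected Control lines. The members were the genes with these 10 symbols, and all 10 were found among 24407 genes with counts, which held 343 vomeronasal receptor genes and 126 *Vmn2r* genes. The samples were 16 libraries, 1 from males and 1 from females of each of 4 HR lines (lines 3, 6, 7 and 8) and 4 Control lines (lines 1, 2, 4 and 5), and each library was made from the pooled VNOs of 3 mice. All mice had the Hsd:ICR background, belonged to generation 88 and were 12 weeks old, and no other treatment or allele is named in the labels. The comparison of HR with Control lines asks which receptors differ after selection for running. The comparison among all lines takes in this difference. Only the comparisons within a linetype ask how far a receptor differs between lines bred alike.

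*Vmn2r* genes encode type 2 vomeronasal receptors, which are G protein-coupled receptors with a long extracellular domain that binds peptides and proteins such as pheromones. They are expressed by vomeronasal sensory neurons (VSNs) of the basal layer of the VNO, which use the G protein subunit encoded by *Gnao1*. Each basal VSN expresses few such receptors, together with a broadly expressed receptor of family C, *Vmn2r1* to *Vmn2r7*. Ligands of the 10 receptors are not described here. In bulk RNA, fewer cells that express a receptor and less RNA per cell cannot be told apart.

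The 10 genes spanned 656.195 kb in RefSeq on GRCm38, from position 108797193 to 109453387 of chromosome 5. The 8 genes from *Vmn2r8* to *Vmn2r15* lie on the minus strand, and *Vmn2r16* and *Vmn2r17* lie on the plus strand at the far end. Their coding sequences in GENCODE were 2544 bases long in the median and 87.2% to 96.7% identical between members (median 90.8%, 45 pairs), with *Vmn2r8* and *Vmn2r9* the closest pair. Since reads with more than 1 location had been dropped, the share of 75-base words of a coding sequence that occur in no other gene limits what could be counted. This share was lowest in *Vmn2r11* (68%), *Vmn2r14* (71.6%) and *Vmn2r9* (72.2%) and highest in *Vmn2r10* (91.6%) and *Vmn2r17* (95.4%).

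The stretches before the first base of 5 minus-strand genes are printed below to show how alike the starts of members were. They are the bases of the RefSeq promoter windows (GRCm38.p6) that lie upstream of the GENCODE gene start, 5′ to 3′ on the strand of the gene, and capitals mark GTTTTCAGA, the longest word found in all 10 windows.
Vmn2r8, chr5:108808851-108809004, minus strand: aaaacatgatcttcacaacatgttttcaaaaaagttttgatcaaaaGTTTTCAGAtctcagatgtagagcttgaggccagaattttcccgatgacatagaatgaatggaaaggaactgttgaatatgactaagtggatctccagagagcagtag
Vmn2r9, chr5:108852602-108852760, minus strand: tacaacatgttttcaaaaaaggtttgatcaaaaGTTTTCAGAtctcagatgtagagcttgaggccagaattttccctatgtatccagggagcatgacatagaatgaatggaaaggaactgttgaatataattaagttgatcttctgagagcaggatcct
Vmn2r11, chr5:109059570-109059702, minus strand: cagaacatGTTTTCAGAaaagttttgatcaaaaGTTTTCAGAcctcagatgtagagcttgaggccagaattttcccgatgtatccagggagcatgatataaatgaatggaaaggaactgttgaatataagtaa
Vmn2r13, chr5:109192200-109192357, minus strand: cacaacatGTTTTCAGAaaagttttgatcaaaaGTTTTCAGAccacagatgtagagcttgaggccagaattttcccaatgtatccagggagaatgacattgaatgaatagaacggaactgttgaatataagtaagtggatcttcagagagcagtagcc
Vmn2r15, chr5:109297645-109297806, minus strand: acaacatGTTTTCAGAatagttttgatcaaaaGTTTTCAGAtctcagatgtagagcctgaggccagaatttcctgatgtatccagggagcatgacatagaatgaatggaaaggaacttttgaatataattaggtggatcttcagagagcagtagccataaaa
The word was picked after the windows had been compared. On either strand, it occurred in 174 of all 32851 promoter windows of this length (0.53%), the members included. It occurred on either strand in 4 of 107 windows of other *Vmn2r* genes (3.74%). In the members it was sought on the strand of the gene alone. Over the whole 300-base windows, identity between members was 78.7% to 95.7%, and the pair *Vmn2r12* and *Vmn2r13* had the highest value.

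Each library held 15998552 to 70875276 counted reads (median 37366329). *Omp*, the marker of mature VSNs, was at 1267 to 2596 CPM, counts scaled to library depth, and the 5 basal markers *Gnao1*, *Tfap2e*, *Robo2*, *Vmn2r1* and *Vmn2r2* summed to 893.8 to 1236 CPM in HR and 855.8 to 1183 CPM in Control libraries. The 3 apical markers summed to 1189 to 1827 CPM in HR and 1053 to 2018 CPM in Control libraries. *Trpc2* and the 4 haemoglobin genes were listed at 0 counts in every library. Why they had no counts was not tested, so this is not read as absence of their RNA. The lists for olfactory, precursor, supporting, ciliated, gland, cartilage, muscle, immune and glial cells overlapped between HR and Control libraries, and no marker of any list had an adjusted *p* under 0.05 for linetype in edgeR. Libraries differed widely in some lists. The 4 gland genes summed to 911.5 to 1.011e+05 CPM in HR and 6070 to 1.183e+05 CPM in Control libraries. The immune markers summed to 39.58 to 439.5 CPM in HR and 40.96 to 254.1 CPM in Control libraries. The part of this spread in the line differences was not tested.

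Levels are compared between genes in reads per kilobase of gene scaled to library depth (RPKM), which the authors scaled within each sex. *Vmn2r17* had the highest median in both sexes (39.6 RPKM in males, 43.7 in females), followed by *Vmn2r8* (30.2 and 33.0) and *Vmn2r11* (11.48 and 12.04). *Vmn2r9*, *Vmn2r10*, *Vmn2r13*, *Vmn2r15* and *Vmn2r16* had medians between 2.64 and 7.05 RPKM, and *Vmn2r12* (0.838 and 1.02) and *Vmn2r14* (0.486 and 0.535) were lowest. In each sex, the range of every gene over the 8 lines overlapped that of the next gene in this order.

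The receptor with the highest RPKM of the cluster was not the same in all lines. *Vmn2r17* held 37.5% to 51.2% of the summed RPKM of the 10 genes in the 8 Control libraries. *Vmn2r8* took the first place in both libraries of HR lines 3, 6 and 7 with 30.6% to 39.2%, while *Vmn2r17* kept it in both libraries of HR line 8. There the male library was near a tie, with 34.74% for *Vmn2r17* and 34.15% for *Vmn2r8*, against 36.92% and 32.58% in the female library. In Control lines 1 and 2 *Vmn2r8* was nearly absent, and *Vmn2r13* or *Vmn2r16* came second with 12.1% to 14.7%. The summed CPM of the cluster averaged 321.1 ± 88.6 in HR lines and 245.9 ± 19.2 in Control lines (SD, n = 4 line means each), a log2 difference of 0.34 that lies within the spread of the lines (two-sided *p* = 0.171 by exact permutation of the lines, smallest *p* possible 0.0286). HR line 6 had the highest sum (421.2 CPM) and HR line 3 the lowest (207.2 CPM).

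**Figure D1:**
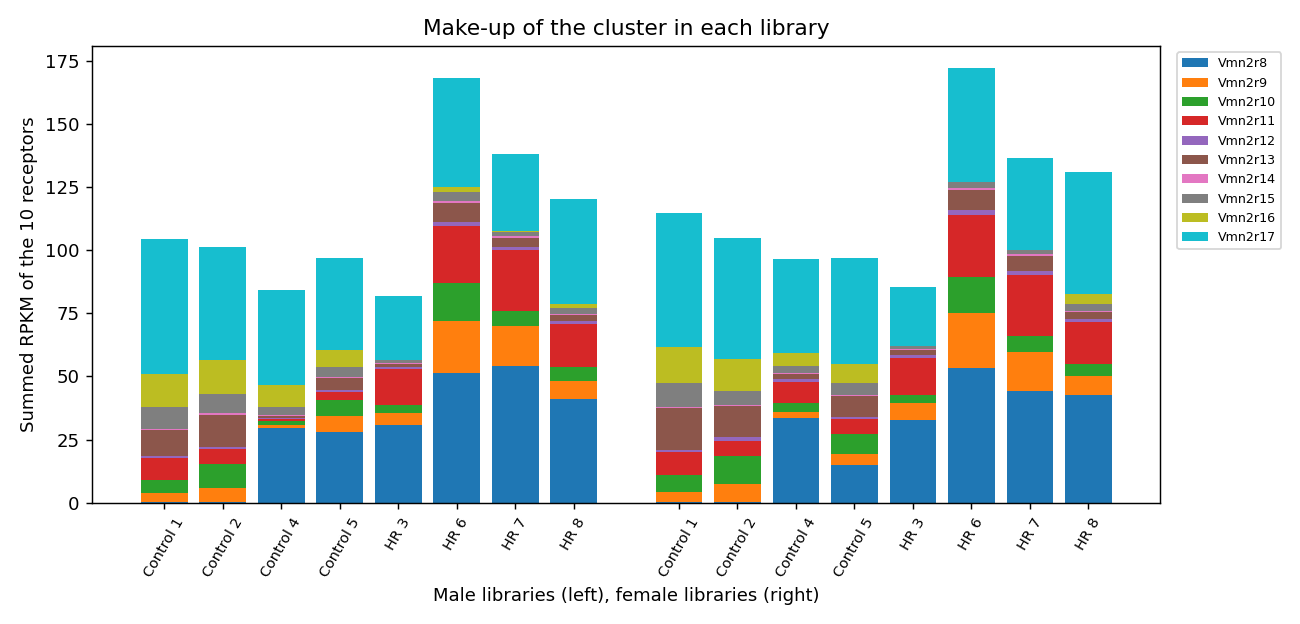
Summed RPKM of the 10 receptors in each library, as stacked bars with 1 colour per gene, male libraries on the left and female libraries on the right. The dark blue band of *Vmn2r8* is missing from Control lines 1 and 2, where it held at most 0.43% of the sum, and the bars of HR line 6 are the tallest (168.3 and 172.3 RPKM).

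Along the cluster, CPM on TMM-normalized library sizes are used from here on to compare 1 gene between libraries. *Vmn2r8* was at 1.33, 1.06, 74.8 and 72.7 CPM in males and at 1.11, 1.24, 83.0 and 36.3 CPM in females of Control lines 1, 2, 4 and 5. It was at 80.4, 131.5, 141.2 and 107.1 CPM in males and at 79.4, 132.6, 109.3 and 105.9 CPM in females of HR lines 3, 6, 7 and 8. Control lines 1 and 2 therefore held the low state in both sexes, separated from the next line by 5.72 on the log2 scale in males and 4.82 in females, whereas Control line 4 (mean 78.9 CPM) reached the level of HR line 3 (79.9 CPM). In the low lines 24 to 94 reads were counted per library, above 0 in each of the 4 libraries.

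*Vmn2r9*, the closest relative of *Vmn2r8* in sequence, did not share this split. It was at 8.41, 13.8, 2.84 and 15.8 CPM in Control males and at 9.38, 16.7, 6.07 and 11.2 CPM in Control females. In HR lines it was at 10.8, 51.0, 39.3 and 17.9 CPM in males and at 15.6, 52.4, 36.5 and 17.8 CPM in females. HR lines 6 and 7 stood above all other lines in both sexes, Control line 4 was lowest, and HR line 3 lay among the Control lines.

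*Vmn2r10* had its highest level in HR line 6 (35.2 CPM) and its lowest in Control line 4 (6.58 CPM). Control libraries ranged from 4.84 to 28.0 CPM (median 15.99) and HR libraries from 7.75 to 37.1 CPM (median 14.7), so both linetypes covered nearly the same range.

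*Vmn2r11* was at 25.1, 17.5, 1.55 and 9.30 CPM in Control males and at 25.4, 16.2, 22.4 and 15.9 CPM in Control females. In HR lines it was at 37.7, 60.5, 63.3 and 46.2 CPM in males and at 36.3, 63.9, 61.0 and 43.1 CPM in females. All 8 HR libraries lay above all 8 Control libraries. The male library of Control line 4 stood apart with 59 reads, against 885 in the female library of that line.

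*Vmn2r12* and *Vmn2r14* were the genes with the lowest RPKM and fewest reads, 21 to 148 and 15 to 99 per library. *Vmn2r12* ranged from 1.18 to 3.14 CPM in Control libraries (median 1.58) and from 1.89 to 4.08 CPM in HR libraries (median 2.78). *Vmn2r14* ranged from 0.579 to 1.39 CPM in Control libraries (median 1.05) and from 1.09 to 2.33 CPM in HR libraries (median 1.73). In both genes HR lines 6 and 7 had the highest line means, and the libraries of the linetypes overlapped.

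*Vmn2r13* lies between these genes and ordered the lines another way. Control lines 1 and 2 were highest with line means of 31.8 and 29.8 CPM, and Control line 4 and HR line 3 were lowest with 3.497 and 3.935 CPM. HR lines 6, 7 and 8 (18.3, 11.7 and 6.24 CPM) and Control line 5 (15.0 CPM) fell between.

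*Vmn2r15* had line means of 22.9, 16.8, 7.505 and 11.1 CPM in Control lines 1, 2, 4 and 5, and the 8 Control libraries ranged from 6.93 to 23.65 CPM (median 13). In HR lines it was at 2.55, 8.53, 4.50 and 5.75 CPM in males and at 2.50, 5.18, 3.31 and 6.54 CPM in females. All 4 HR line means lay below all 4 Control line means, and single libraries overlapped, since the male library of HR line 6 exceeded both libraries of Control line 4.

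*Vmn2r16*, the first gene on the plus strand, was at 31.6, 33.6, 21.5 and 17.3 CPM in Control males and at 33.4, 29.9, 12.3 and 17.8 CPM in Control females. In HR lines it was at 0.355, 5.24, 0.511 and 3.78 CPM in males and at 0.33, 0.268, 0.632 and 9.39 CPM in females. All 8 HR libraries lay below all 8 Control libraries. HR lines 3 and 7 held the low state in both sexes, HR line 8 was intermediate, and HR line 6 was low in females only, with 9 reads against 169 in males.

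*Vmn2r17*, at the end of the cluster, varied least. It ranged from 88.7 to 130.6 CPM in Control libraries (median 106.4) and from 55.3 to 114 CPM in HR libraries (median 94.1). Control line 1 was highest (128.2 CPM) and HR line 3 lowest (58.9 CPM), 2.17-fold apart, whereas the highest and the lowest line differed 114.9-fold in *Vmn2r8* and 94.9-fold in *Vmn2r16*.

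**Figure D2:**
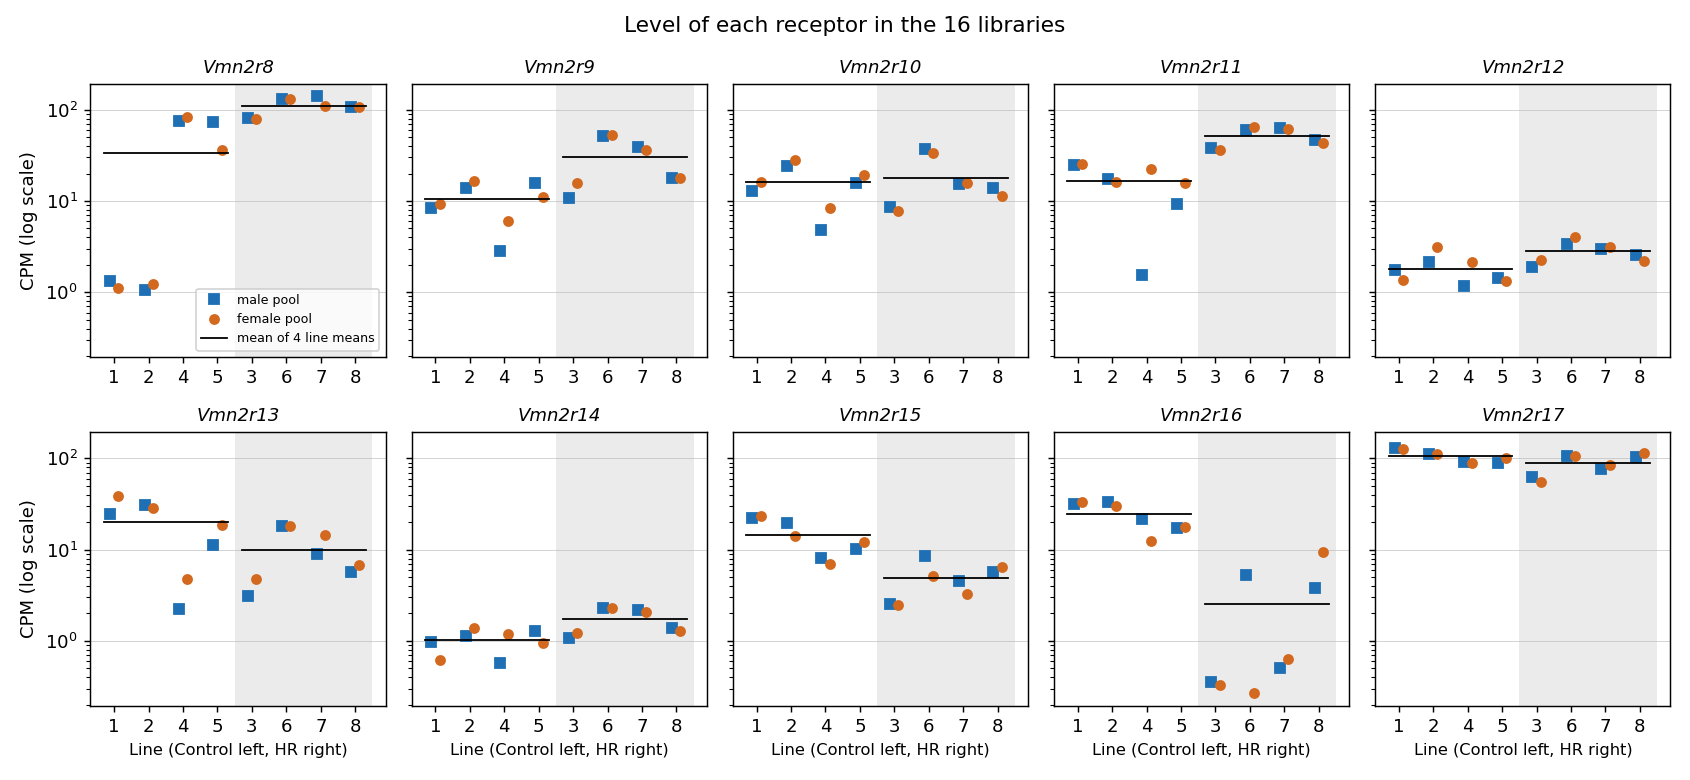
CPM on a log scale of each receptor in males (squares) and females (circles) of Control lines 1, 2, 4 and 5 and, on grey, HR lines 3, 6, 7 and 8, with lines for the mean of 4 line means. *Vmn2r8* drops to about 1 CPM in Control lines 1 and 2, *Vmn2r16* falls below 1 CPM in 5 HR libraries, and the male library of Control line 4 lies apart from the female library in *Vmn2r11*.

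By the rule that a gap of at least 1 on the log2 scale separates high from low lines, *Vmn2r8* was the only member with the same split in males and females. *Vmn2r16* was split in both sexes, with lines 3 and 7 low in males (gap 2.77) and lines 3, 6 and 7 low in females (gap 3.79). *Vmn2r9* was split in both sexes at different places, below Control line 4 alone in males (gap 1.55) and between HR lines 6 and 7 and all others in females (gap 1.03). *Vmn2r11* was split in males alone, where Control line 4 was low (gap 2.54), and *Vmn2r13* in females alone, where lines 3, 4 and 8 were low (gap 1.07). The other 5 members had no such gap in either sex. Since the split was defined by the values, no test was made of it.

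Differences among lines were tested with edgeR's quasi-likelihood test, with sex in the model and the 2 libraries of a line as its samples. Over all 8 lines this test takes in the difference between the linetypes. Among the 8 lines, 9 of the 10 members had an adjusted *p* under 0.05 (Benjamini-Hochberg over 16507 genes), against 26.3% of all genes tested and 194 of 274 other receptors (70.8%). *Vmn2r8* had the lowest adjusted *p* (2.015e-06), followed by *Vmn2r13* (9.69e-05) and *Vmn2r15* (0.000133), and *Vmn2r11* missed the threshold (0.0684). Without the male library of Control line 4, *Vmn2r11* passed too and 10 members were called, while *Vmn2r12* and *Vmn2r14* were lost without HR line 6, its female library or HR line 7, and *Vmn2r14* also without HR line 8. The SD over the 8 line means of log2 CPM had a median of 1.09 over the members, 0.39 over the other receptors tested and 0.19 over all genes tested. By this SD *Vmn2r8* (2.91) ranked 9 and *Vmn2r16* (2.59) ranked 17 of 16507 genes, and *Vmn2r17* (0.35) ranked 4395.

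Lines of the same linetype differed as well. Among the 4 Control lines 6 members passed the test, against 19% of all genes and 159 of 274 other receptors (58.03%): *Vmn2r8*, *Vmn2r9*, *Vmn2r10*, *Vmn2r13*, *Vmn2r15* and *Vmn2r17*. Among the 4 HR lines 6 members passed, against 17.8% of all genes and 123 of 274 other receptors (44.89%), and they were *Vmn2r9*, *Vmn2r10*, *Vmn2r13*, *Vmn2r15*, *Vmn2r16* and *Vmn2r17*. *Vmn2r8* had an adjusted *p* of 6.62e-07 among Control lines and 0.107 among HR lines, and *Vmn2r16* had 0.482 among Control lines and 0.0243 among HR lines, and whether the spread of a gene differed between the linetypes was not tested. Without Control line 5 *Vmn2r8* passed among HR lines too, with an adjusted *p* of 0.00937. Single lines decided 3 of these calls, since *Vmn2r16* was lost among HR lines without line 3, 7 or 8, *Vmn2r15* without line 3, and *Vmn2r17* among Control lines without line 1. Without the male library of Control line 4, 7 members passed among the Control lines (*Vmn2r11* added) and 8 among the HR lines (*Vmn2r11* and *Vmn2r14* added), and without the female library of HR line 6 as well these counts were 7 and 6.

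Between HR and Control lines, 4 members leaned higher and 2 lower in HR lines at an unadjusted *p* under 0.05, and none passed the adjusted threshold in edgeR. The count at the unadjusted threshold was 6 of 10, against 3.3% of all genes tested, and the adjusted count of 0 of 10 stands against 0.0242% of all genes. DESeq2 called 4 members (*Vmn2r9*, *Vmn2r11*, *Vmn2r15* and *Vmn2r16*), against 0.182% of all genes, and limma on log2(RPKM + 1) and on log2(RPKM + 0.1) called *Vmn2r16* alone, against 0.0242% of all genes in each. These fits treat both sexes of a line as separate samples. With counts summed per line (edgeR), and with line as a random effect (limma-voom), 0 members were called, with 6 and 7 at an unadjusted *p* under 0.05.

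*Vmn2r16* showed the widest difference, at 2.56 ± 2.89 CPM in HR and 24.7 ± 8.62 CPM in Control lines (SD, n = 4 line means), a log2 fold change of -3.27 ± 0.70 (SE, edgeR adjusted *p* = 0.247). Without HR line 8, the HR line with its highest level, the adjusted *p* in edgeR was 0.0326, with a log2 fold change of -4.57. Without any other single line it ran from 0.26 (HR line 3) to 0.63 (HR line 7).
*Vmn2r15* was at 4.86 ± 2.00 against 14.6 ± 6.76 CPM, a log2 fold change of -1.60 ± 0.31 (adjusted *p* = 0.145).
*Vmn2r11* was at 51.5 ± 12.7 against 16.7 ± 6.12 CPM, a log2 fold change of 1.65 ± 0.36 (adjusted *p* = 0.275), and without the male library of Control line 4 the adjusted *p* was 0.0263. With whole lines left out, the adjusted *p* in edgeR was 0.0428 without Control line 4 and ran from 0.195 to 0.777 without any other line.
*Vmn2r9* was at 30.1 ± 17.9 against 10.53 ± 4.853 CPM, a log2 fold change of 1.52 ± 0.39 (adjusted *p* = 0.529), and HR line 3 lay within the Control range.
*Vmn2r8* was at 110.9 ± 23.3 against 33.9 ± 39.1 CPM, a log2 fold change of 1.72 ± 0.85 (adjusted *p* = 0.9997, unadjusted 0.0599). Its Control SD exceeded the Control mean, since 2 Control lines had the low and 2 the high state, and the log2 fold change ran from 1.30 to 2.65 when single lines were left out. It was 4.25 with limma-voom, 2.89 on log2(RPKM + 1) and 3.69 on log2(RPKM + 0.1), with adjusted *p* from limma of 0.23, 0.72 and 0.852.

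The other 5 members differed less. *Vmn2r14* had a log2 fold change of 0.78 ± 0.23 and *Vmn2r12* of 0.65 ± 0.21 (SE, unadjusted *p* in edgeR 0.00446 and 0.00782, adjusted 0.97 and 0.9997). *Vmn2r13* (-0.99 ± 0.51) and *Vmn2r17* (-0.27 ± 0.15) had unadjusted *p* of 0.0714 and 0.0932 in edgeR. *Vmn2r10* had a log2 fold change of 0.16 ± 0.38, and its sign turned in females alone and without HR line 6 or Control line 4. The median log2 fold change was 0.40 over the 10 members and 0.00 over all genes tested.

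**Figure D3:**
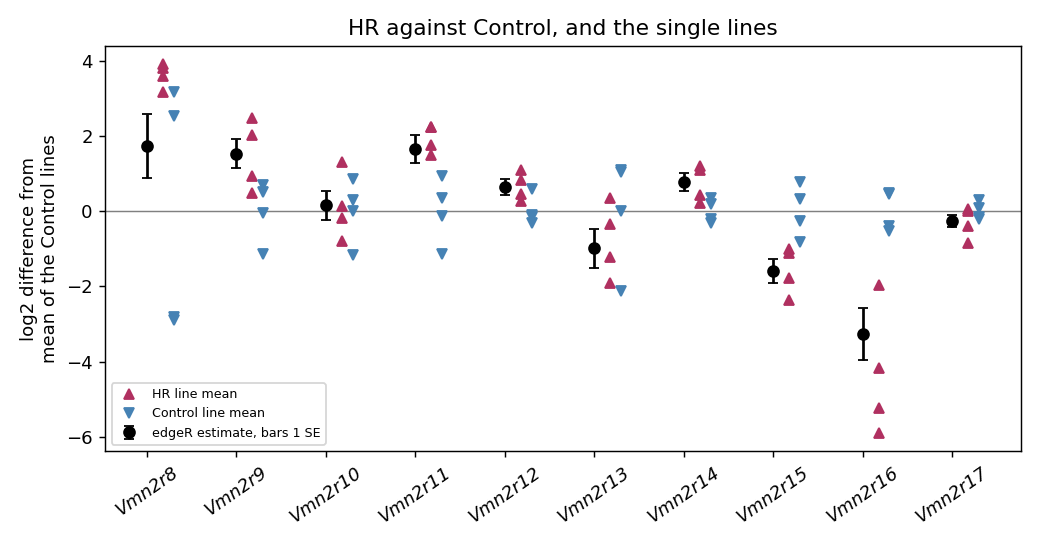
Log2 difference between HR and Control lines for each receptor, with black points for the edgeR estimate and bars of 1 SE, and triangles for the 4 HR and the 4 Control line means relative to the Control mean of log2 CPM. HR line means lie apart from Control line means in *Vmn2r8*, *Vmn2r11*, *Vmn2r15* and *Vmn2r16*, with the HR lines of *Vmn2r8* beside 2 of the Control lines.

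With 1 value per line, the HR line means lay above all Control line means in 2 members, *Vmn2r8* and *Vmn2r11*, against 0.473% of all genes tested, and below them in 2 members, *Vmn2r15* and *Vmn2r16*, against 0.327% of all genes. Each of these 4 had an exact two-sided permutation *p* over lines of 0.0286, the smallest that 4 against 4 lines allow, unadjusted. Among the 274 other receptors tested, 3 lay above and 2 below. In *Vmn2r8* this rests on a narrow margin, since the female library of Control line 4 (83.0 CPM) exceeded both libraries of HR line 3.

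Males and females of a line had similar levels in most cases, and 2 differences stood far above the others. No member had an adjusted *p* under 0.05 for females against males in edgeR, against 0.188% of all genes, and none had an unadjusted *p* under 0.05, against 8.08%. For the interaction of sex and linetype the counts were also 0 and 0, against 0% and 0.394% of all genes. These fits had no line term, so the pairing of the sexes by line was not used and the spread between lines entered the error. With line as a replicate block in edgeR, the adjusted counts stayed at 0 (lowest adjusted *p* for sex 0.122). In these blocked fits 1 member had an unadjusted *p* under 0.05 for sex and 1 for the interaction. Over the 8 lines, male and female log2 CPM had correlations from 0.68 in *Vmn2r14* to 0.96 in *Vmn2r13*, with *Vmn2r8* and *Vmn2r16* left out for their separate groups of lines, which describe how well the line order was repeated in the other pool. The widest differences within a line were in *Vmn2r16* of HR line 6 (female minus male log2 CPM -4.05) and *Vmn2r11* of Control line 4 (3.81). The next were *Vmn2r16* of HR line 8 (1.30) and *Vmn2r9* (1.08) and *Vmn2r13* (1.05) of Control line 4. All are on log2 CPM with a prior count of 2. In Control line 4, *Vmn2r8* to *Vmn2r14* were all higher in the female than in the male library and *Vmn2r15* to *Vmn2r17* were lower, and the median absolute log2 difference between the libraries was 0.81 over the members and 0.21 over other receptors. In HR line 6 the same medians were 0.06 and 0.22.

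Whether neighbours share line profiles was examined by the correlation of line-mean log2 CPM over the 8 lines. A gap of at least 2 on the log2 scale divided the lines into separate groups in *Vmn2r8* (lines 1 and 2) and *Vmn2r16* (lines 3, 6 and 7). For neighbours paired with these genes no Pearson *r* over all lines is given, and Spearman's rho is given further below. Of the 9 pairs of neighbours, 6 remained for *r*. Their two-sided exact permutation *p* values are unadjusted for the number of pairs.

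*Vmn2r9* and *Vmn2r10* had *r* = 0.73 (permutation *p* = 0.0353) and Spearman's rho = 0.69 (*p* = 0.0694, exact), but *r* fell to 0.12 without lines 4 and 6, so the relation rests on these lines. *Vmn2r11* and *Vmn2r12* had *r* = 0.75 (permutation *p* = 0.0362) and rho = 0.76 (*p* = 0.0368, exact), and *r* = 0.58 without lines 4 and 5. Of 13 alternatives, 10 gave an unadjusted exact permutation *p* under 0.05 for the former pair and 5 for the latter. In males alone *r* was 0.83 and 0.88 in these pairs (permutation *p* = 0.0145 and 0.000868). In females alone it was 0.555 and 0.58 (permutation *p* = 0.154 and 0.137). *Vmn2r10* and *Vmn2r11* (0.42), *Vmn2r12* and *Vmn2r13* (0.17), *Vmn2r13* and *Vmn2r14* (0.15) and *Vmn2r14* and *Vmn2r15* (-0.46) had *r* with exact permutation *p* between 0.254 and 0.711.

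These values changed when the mean of each linetype was removed, so that lines are compared within their linetype. *Vmn2r9* and *Vmn2r10* then had *r* = 0.95, *Vmn2r10* and *Vmn2r11* 0.69, *Vmn2r12* and *Vmn2r13* 0.60, and *Vmn2r13* and *Vmn2r14* 0.60. *Vmn2r11* and *Vmn2r12* fell to 0.39, and *Vmn2r14* and *Vmn2r15* turned from -0.46 to 0.29. Neighbours from *Vmn2r9* to *Vmn2r15* therefore all had positive *r* within linetypes, given as a description. How far these within-linetype values rest on single lines was not tested. With linetype means kept, *r* without Control line 4 was -0.02 for *Vmn2r10* and *Vmn2r11*. It was -0.04 for *Vmn2r12* and *Vmn2r13* and -0.13 for *Vmn2r13* and *Vmn2r14*. Pairs with *Vmn2r8* or *Vmn2r16* are left out here by the rule above.

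For *Vmn2r8* and *Vmn2r9*, *r* within the 6 lines with the high state of *Vmn2r8* was 0.67 (exact permutation *p* = 0.139). For *Vmn2r15* and *Vmn2r16* no *r* is given, since the groups of lines split by *Vmn2r16* hold 3 and 5 lines, fewer than 6. Both genes ordered the Control lines as 1, 2, 5 and 4 from high to low, and both had HR line 7 and then HR line 3 at the bottom. *Vmn2r17* had lines 1 and 2 at the top and lines 7 and 3 at the bottom as well, but HR lines 8 and 6 lay above Control lines 5 and 4, whereas in *Vmn2r15* and *Vmn2r16* all 4 Control lines lay above all 4 HR lines. *Vmn2r15* lies on the other strand and was identical to *Vmn2r16* and *Vmn2r17* at 87.96% and 88.18% of coding bases.

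**Figure D4:**
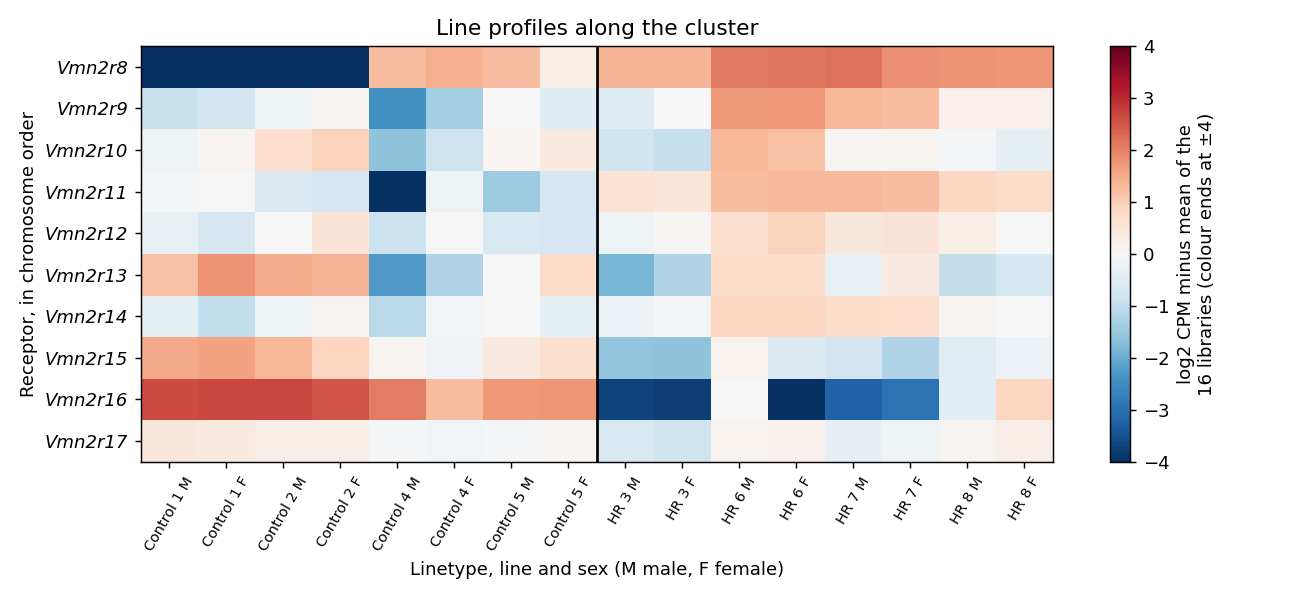
Log2 CPM of each receptor minus its mean over the 16 libraries, with receptors in chromosome order from top to bottom and Control libraries left of the line. Dark blue fields mark *Vmn2r8* in Control lines 1 and 2 and *Vmn2r11* in the male library of Control line 4. They also mark *Vmn2r16* in HR lines 3 and 7 and in the female library of HR line 6. HR line 6 is red from *Vmn2r8* to *Vmn2r14*, while in *Vmn2r13* Control lines 1 and 2 are redder still.

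Line profiles were shared between genes that are not neighbours too. *Vmn2r9* and *Vmn2r14*, with 4 members between them, had *r* = 0.95 over the 8 lines, and *Vmn2r12* and *Vmn2r14*, on both sides of *Vmn2r13*, had 0.90. *Vmn2r15* and *Vmn2r17*, on both sides of *Vmn2r16*, had 0.86, and 0.94 with linetype means removed. Over the 45 pairs of members *r* ran from -0.81 to 0.95. Over all pairs the medians of *r* were 0.42 in the 9 pairs of neighbours, 0.27 in the 45 pairs of members, 0.47 in 232 other pairs of next-door receptors within 250 kb, 0.38 in 80 such *Vmn2r* pairs and 0.21 in 30213 receptor pairs on different chromosomes, all computed alike, with pairs of separate line groups included. Across the 45 pairs, *r* of line profiles had a correlation of 0.32 with coding identity, 0.02 with promoter window identity and -0.47 with the number of steps between the genes. These values are a description, since the pairs share genes, lines and libraries.

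The gene most like each member over the 16 log2 CPM values, among all genes tested, was another gene of this stretch of chromosome 5 in 5 cases. *Vmn2r8* was most like *Tmed11* (*r* = 0.99), the next gene on the outer side, which encodes a protein of the p24 family of cargo receptors. *Vmn2r9* and *Vmn2r14* were most like each other (0.92), *Vmn2r12* was most like *Vmn2r14* (0.89) and *Vmn2r16* most like *Vmn2r15* (0.89). *Vmn2r15* was most like *Zfp605* (0.90), a zinc finger gene at position 110110092 to 110129794 of chromosome 5, with *Vmn2r16* next (0.89). The genes most like *Vmn2r10* (*Zfp169*, 0.90), *Vmn2r11* (*Tmem239*, 0.84), *Vmn2r13* (*Palm2*, 0.87) and *Vmn2r17* (*Tdrd3*, 0.88) lie on other chromosomes. Each is the highest of many correlations over libraries that come in pairs of a line, and in *Vmn2r8* and *Vmn2r16* the separate groups of lines by themselves give a high *r*, so these values are a description.

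Within 500 kb of the cluster, 17 other genes had counts and 15 passed the filter. *Tmed11* was at 0.0186 to 0.0567 CPM in males and 0 to 0.0139 CPM in females of Control lines 1 and 2, and at 0.701 to 2.86 CPM in the other 12 libraries, so it was low in the same 2 lines as *Vmn2r8*. It had 0 to 4 reads in the low libraries, and its adjusted *p* in edgeR was 0.000145 among the 8 lines. In GENCODE the last part of *Vmn2r8* overlaps *Tmed11* by 3521 bases on the same strand. Under that annotation, reads from these bases cannot be assigned to 1 of the genes. The lowest position of *Vmn2r8* in RefSeq is 108797193, beyond the highest position of *Tmed11* in GENCODE (108795363), without overlap. The part of shared bases in the shared low lines was not tested. The annotation and the use of strand in the authors' counting are not given in the sources used here.

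*Cplx1*, which encodes complexin 1, a regulator of synaptic vesicle release, was the only one of the 15 with an adjusted *p* under 0.05 for linetype. It was at 0.57 to 1.47 CPM in the 8 HR libraries and 0.258 to 0.455 CPM in the 8 Control libraries, with no overlap. Line means averaged 1.11 ± 0.23 in HR and 0.34 ± 0.06 in Control lines (SD, n = 4), a log2 fold change of 1.67 ± 0.19 (SE, edgeR adjusted *p* = 0.00434). Its counts were low, 5 to 61 per library, and the call was lost in 5 of 20 alternatives, among them counts summed per line in edgeR (adjusted *p* = 0.75) and the limma-voom random effect of line (0.128). Of the 15 genes, 4 differed among the 8 lines at an adjusted *p* under 0.05, near the 26.3% of all genes.

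**Figure D5:**
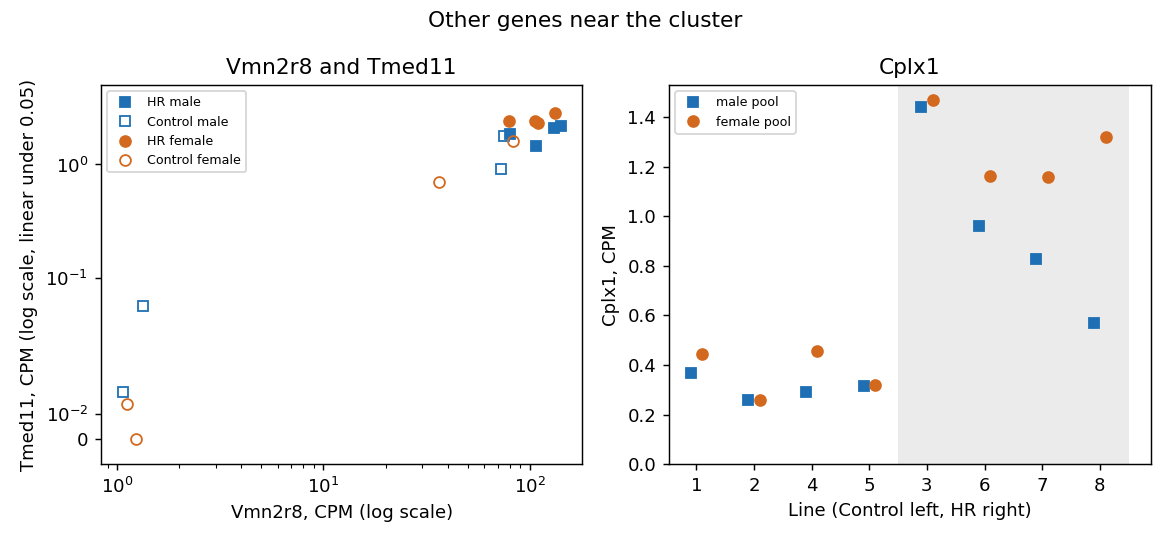
Left, CPM of *Tmed11* against CPM of *Vmn2r8* in the 16 libraries on log scales, the vertical axis linear under 0.05, with filled symbols for HR and open symbols for Control lines. Right, CPM of *Cplx1* by line, with HR lines on grey. The 4 libraries of Control lines 1 and 2 lie at the lower left for both genes, and *Cplx1* is higher in all 8 HR libraries than in any Control library.

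Genes that basal VSNs use together with these receptors were examined next. Of 33 listed genes for basal signalling, markers, H2-Mv molecules and family C receptors, 32 were tested, and none had an adjusted *p* under 0.05 for linetype in edgeR, against 0.0242% of all genes. At an unadjusted *p* under 0.05, 2 were lower and 0 higher in HR lines, against 3.3% of all genes in either direction. These were *H2-M1* (log2 fold change -0.82 ± 0.35, SE) and *H2-M10.4* (-0.57 ± 0.24, SE), non-classical class I molecules of basal VSNs. The median log2 fold change of the 32 genes was 0.03, and the family C receptors *Vmn2r1* to *Vmn2r7* lay between -0.16 and 0.16. *Gnao1*, the G protein subunit of these neurons, was at 425.4 ± 59.6 CPM in HR and 406.2 ± 47.2 CPM in Control lines (SD, n = 4 line means, edgeR adjusted *p* = 0.9997). Among the 8 lines, 20 of the 32 genes passed the test, against 26.3% of all genes, including all 9 H2-Mv genes and 4 of the 7 family C receptors.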

How the data were processed

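Male and female VNO RNA was sequenced as single-end reads of 75 nucleotides from directional, ribosomal RNA-depleted libraries, pools of 3 mice each. Alignment to GRCm38 used STAR 2.6.1d and kept only reads identical to the reference at 1 location, so that alleles unlike the reference lose reads. The part of this loss in the line differences was not tested. The deposited count tables hold reads per gene without normalization, 1 table per sex, and the counting tool is not given in the sources used here. The deposited RPKM were computed by the authors with Cuffdiff and scaled within each sex, so sexes are not compared by RPKM. The tables of 1 sex may also be 1 sequencing run. The male table also has 4 summary entries that name no gene, left out here (unmapped reads 16.1% to 17.7%, reads outside genes 16.7% to 18.5%, ambiguous reads 0.837% to 1.09% of its totals). Depth was 15998552 to 70875276 counts per library, and the number of lines limits precision more than depth does.

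Counts were tested with edgeR 4.0.16 in R 4.3.3 (TMM, filterByExpr with a minimum count of 10, 16507 genes, Benjamini-Hochberg threshold 0.05), with sex and linetype, or sex and line, in the model. Standard errors are the log2 fold change divided by the root of *F*. Log2 CPM had a prior count of 2. DESeq2 1.42.0, limma 3.58.1, DESeq2 size factors, no filter, line sums and leaving out each line were alternatives. The tests were tried on simulated data first. After group means were removed, male and female libraries of a line had correlations of 0.321 to 0.708 across genes. Line numbers therefore pair the sexes. The main tests of sex and of the interaction had no line term, and line was a replicate block only in an alternative fit of each. Nothing in the labels says that the lines' pools were repeated, so p-values measure the spread between these libraries. The members and lists were chosen with earlier results of these data known. Genes named were all members, the gene most like each member, genes within 500 kb and a list for basal neurons. Positions come from GENCODE M21 and RefSeq, both on GRCm38, and promoter windows from RefSeq.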

Additional observations from a re-analysis of the deposited data

How the results depend on the processing

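The count of members past the adjusted threshold for linetype, 0 in edgeR, was 4 with DESeq2, 1 with limma on log2(RPKM + 1), 1 with limma on log2(RPKM + 0.1), and 0 to 1 when single lines were left out (*Vmn2r11* without Control line 4, *Vmn2r16* without HR line 8). The settings that omit single libraries were chosen after seeing the data. Without the male library of Control line 4 the count was 1 (*Vmn2r11*), and without the female library of HR line 6 or without both libraries it was 0. Males alone and females alone gave 0. The sign of the log2 fold change held in every alternative run for 9 members. *Vmn2r10*, at 0.16, turned to -0.0605 in females alone, to -0.0659 without the female library of HR line 6 and to -0.26 without both libraries, and ran from -0.40 to 0.49 when single lines were left out. The log2 fold changes of *Vmn2r12* (0.65) and *Vmn2r14* (0.78) were 0.35 and 0.23 on log2(RPKM + 1), and that of *Vmn2r17* (-0.27) was -0.12 without HR line 3 and -0.17 without Control line 1. The counts of members that differed among lines stayed within 1.5 times in every alternative. The replicate block of line left both the count for sex and the count for the interaction at 0, with 1 member each at an unadjusted *p* under 0.05, and changed no call. The median *r* of neighbours, 0.42, was 0.64 in males alone, 0.36 in females alone and 0.60 with linetype means removed. It ran from 0.2231 to 0.5647 when single lines were left out. The number of members with the same split in both sexes was 1 under each scale and gap. The causes of these shifts were not tested. With 4 lines per linetype, precision is set by the lines, and the lowest counts were 9 reads in *Vmn2r16* and 15 in *Vmn2r14*.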
